A study of Caenorhabditis elegans with 2 samples.

Results

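The regions described are the autosomal binding sites of SDC-2 that lie at the starts of protein-coding genes. They are 484 peaks of chromatin immunoprecipitation and sequencing (ChIP-seq). Each was on chromosome I, II, III, IV or V and had its summit, the highest point of the peak, within 1000 bp of the 5′ end of an annotated protein-coding transcript. They made up 484 of 780 autosomal peaks and of 1343 peaks on the nuclear chromosomes in the authors' list of reproducible peaks, selected by the irreproducible discovery rate (IDR) and called IDR peaks here. Within that list, position alone decided membership. The list itself holds the 1343 strongest of 26639 entries called on both replicates pooled, which the authors label as peaks and background. Signal and agreement between the replicates were thus used in selecting the IDR list, while sequence and gene class were not.

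The study mapped SDC-2 in Caenorhabditis elegans as 1 group of 2 biological replicates, with no second condition. All animals were hermaphrodite late embryos of the transgenic strain OP92, which makes SDC-2 fused at its C terminus to GFP and FLAG. Chromatin of whole organisms was sonicated and precipitated with an antibody to GFP at 3.25 h after the culture was synchronized by bleaching for eggs. Chromatin of an untagged strain was not analysed here, and because whole embryos were used, more binding per cell and more bound cells cannot be told apart. The 2 replicate lists held 25174 and 24434 nuclear peaks and the list called on both replicates pooled held 26639 entries, peaks and background. No list has read counts, so that depth is unknown. Signal is the value the authors' peak caller gave each peak. It is on 1 scale within a list and its unit is not given in the sources used here.

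In C. elegans, hermaphrodites have a pair of X chromosomes and males have a single one, and dosage compensation lowers transcription from both hermaphrodite X chromosomes. SDC-2 is made in hermaphrodites, starts the loading of the condensin-like dosage compensation complex on X and is also needed to repress the male-determining gene her-1, which is autosomal. Binding of the complex on X is known to begin at recruitment sites and to spread, and promoters of active genes are among the places where it accumulates.

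Sequences of 12 autosomal start peaks show what lay under the summits. Each is the 121 bases centred on the summit, 5′ to 3′ in the direction of the nearest gene, from the NCBI RefSeq reference WBcel235 (ce11), and none overlaps a protein-coding exon. The first 4 had the 8-mer AGACGCAG on either strand within 60 bp of the summit in such a window, and capitals mark that 8-mer or its complement CTGCGTCT. They lie at chrIV:13887576-13887696 on the plus strand (lin-66, a heterochronic gene), chrIV:1745722-1745842 on the plus strand (Y41D4A.4), chrIII:8802029-8802149 on the plus strand (zfp-1, a zinc finger chromatin protein) and chrII:10502861-10502981 on the minus strand (myrf-1, a membrane-bound transcription factor needed for larval development).
lin-66: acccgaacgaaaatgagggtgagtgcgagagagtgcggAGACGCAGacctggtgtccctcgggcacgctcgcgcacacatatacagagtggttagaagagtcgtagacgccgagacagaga
Y41D4A.4: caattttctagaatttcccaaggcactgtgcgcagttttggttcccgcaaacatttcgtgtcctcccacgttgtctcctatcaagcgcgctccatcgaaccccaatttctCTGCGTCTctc
zfp-1: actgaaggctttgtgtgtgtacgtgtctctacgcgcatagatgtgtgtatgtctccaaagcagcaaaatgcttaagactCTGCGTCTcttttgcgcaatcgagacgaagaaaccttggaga
myrf-1: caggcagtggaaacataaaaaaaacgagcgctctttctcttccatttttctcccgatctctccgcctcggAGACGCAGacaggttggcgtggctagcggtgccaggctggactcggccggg
The next 3 show GAGAGAGA or its complement TCTCTCTC in capitals, at chrIII:8043895-8044015 on the plus strand (K12H4.5, the strongest autosomal start peak), chrII:12222647-12222767 on the minus strand (pqn-87) and chrII:11746918-11747038 on the minus strand (gpb-1, a G protein beta subunit). This 8-mer overlaps itself, so a longer run of GA counts as 1 capital stretch.
K12H4.5: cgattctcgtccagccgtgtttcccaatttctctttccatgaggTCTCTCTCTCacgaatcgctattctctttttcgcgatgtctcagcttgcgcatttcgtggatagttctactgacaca
pqn-87: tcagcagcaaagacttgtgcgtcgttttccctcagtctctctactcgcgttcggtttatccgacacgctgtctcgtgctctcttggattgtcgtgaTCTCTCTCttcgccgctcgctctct
gpb-1: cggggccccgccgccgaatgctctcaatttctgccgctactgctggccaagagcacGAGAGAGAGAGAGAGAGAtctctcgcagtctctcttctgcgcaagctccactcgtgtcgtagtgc
The next 2 are strong peaks with neither 8-mer, at chrIII:3499975-3500095 on the minus strand (M01F1.9) and chrIII:10461264-10461384 on the plus strand (atx-2, the ataxin-2 homologue, an RNA-binding protein).
M01F1.9: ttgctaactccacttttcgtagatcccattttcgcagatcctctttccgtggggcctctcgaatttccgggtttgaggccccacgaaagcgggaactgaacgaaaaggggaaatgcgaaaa
atx-2: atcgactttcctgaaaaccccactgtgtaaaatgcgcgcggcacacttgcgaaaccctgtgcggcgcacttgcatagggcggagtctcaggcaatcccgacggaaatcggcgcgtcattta
The last 3 lie beside small RNA genes, and capitals mark GTTCGANNC or its complement, letters of the internal promoter (B box) that RNA polymerase III factors recognise in tRNA genes. These windows were picked for holding those letters within 60 bp of the summit, and stronger peaks beside snoRNA genes without them, such as that of mpk-2, were passed over. They are at chrV:19643166-19643286 on the minus strand (Y43F8C.7, beside the snoRNA gene Y43F8C.22), chrII:8107256-8107376 on the plus strand (C41C4.9, beside the snoRNA gene C41C4.11) and chrII:12494683-12494803 on the minus strand (col-85, a cuticle collagen gene with a tRNA gene in its intron).
Y43F8C.7: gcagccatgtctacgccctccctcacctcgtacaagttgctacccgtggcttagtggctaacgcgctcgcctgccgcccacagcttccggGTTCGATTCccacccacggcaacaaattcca
C41C4.9: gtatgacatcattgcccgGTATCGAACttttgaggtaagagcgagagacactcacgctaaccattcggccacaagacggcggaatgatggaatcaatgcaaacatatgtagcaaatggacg
col-85: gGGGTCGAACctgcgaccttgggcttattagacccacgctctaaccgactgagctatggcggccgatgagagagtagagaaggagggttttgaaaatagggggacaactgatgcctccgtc

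The summits clustered just upstream of the annotated starts. The median summit lay 192 bp upstream of the nearest 5′ end (an offset of -192 bp, quartiles -370 and -53.8 bp, n = 484). Of the 484 summits, 393 were upstream (81.2%, exact 95% interval 77.4 to 84.6%), where 46.0% of the autosomal bases within 1000 bp of a start are upstream. A window of 400 bp upstream of the start held 283 summits (58.5%, interval 53.9 to 62.9%) on 22.4% of those bases. The densest 100 bp, from -200 to -100 bp, held 102 summits, 3.66 times the share of bases there, and the next, from -300 to -200 bp, held 80, 3.09 times. Beyond 500 bp upstream the share fell to that of the bases or below it (ratios of 0.654 to 1.01 per 100 bp), and every 100 bp bin downstream of the start was under it, with ratios of 0.230 to 0.487.

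**Figure D1:**
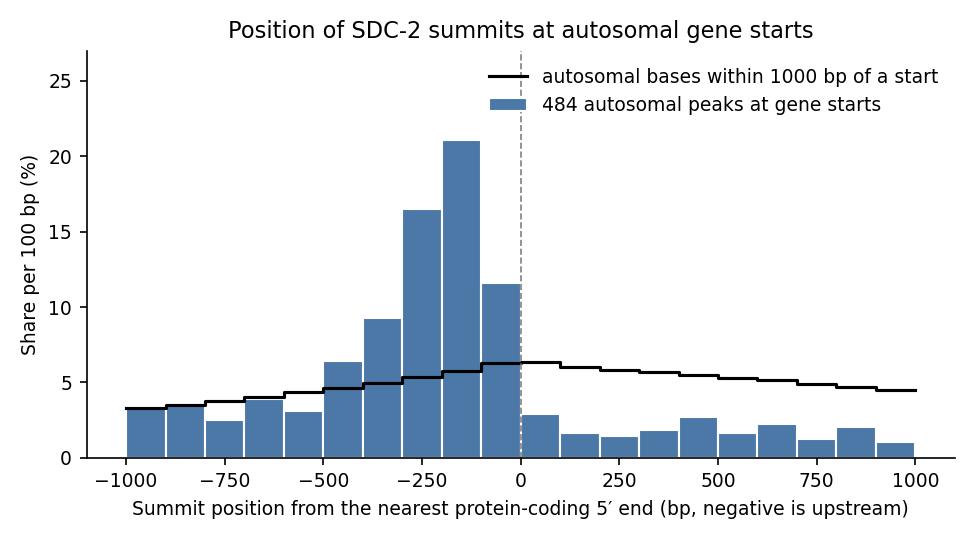
Share of the 484 autosomal start summits (bars) and of all autosomal bases within 1000 bp of a start (line) in bins of 100 bp by position from the nearest protein-coding 5′ end. The bars stand above the line from -500 to 0 bp, peak at 21.1% between -200 and -100 bp, and stay below it downstream.

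By annotation, 330 summits (68.2%, exact interval 63.8 to 72.3%) were intergenic, 105 (21.7%) in introns, 20 (4.13%) in untranslated exons and 29 (5.99%) in coding exons. Of the bases within 1000 bp of a start, 30.6% are intergenic, 32.5% intronic, 6.83% in untranslated exons and 30.2% in coding exons. Coding exons thus held 5.99% of the summits on 30.2% of the sequence. The limit of 1000 bp did not fall in a gap. From -1000 to -900 bp lay 16 summits (1.01 times the share of bases), and from 900 to 1000 bp lay 5 (0.230 times). The outermost summits inside the limit were those of dhs-8 (offset -998 bp, signal 195), cye-1 (996 bp, 258) and twk-48 (995 bp, 143). Just outside lay C04A2.15 (1005 bp, 154), epg-9 (1007 bp, 98.1) and let-526 (1015 bp, 109). Signal and distance from the start hardly moved together across the 484 peaks (Spearman rho 0.06 between signal and absolute offset, a description across peaks called in the same libraries).

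Many summits lay between a pair of divergent starts, 5′ ends of a minus-strand and a plus-strand gene that point away from each other. With both starts within 1000 bp, this held for 122 of 484 peaks (25.2%, exact interval 21.4 to 29.3%), while 4.63% of the bases within the limit lie so. The distance between the paired starts had a median of 598 bp (quartiles 389 and 887 bp, range 82 to 1598 bp). The summit lay a median of 178 bp upstream of the nearer start (offset -178 bp) and a median of 393 bp from the other. Of 1772 divergent gene pairs with starts within 1000 bp of each other, 97 had a summit between them (5.47%). Genes with such a partner had a summit within 1000 bp in 240 of 3513 cases (6.83%), and other autosomal genes in 381 of 13729 (2.78%). A summit between paired starts counts for both genes, so the 240 are not independent cases. The part of this shared counting in the gap was not tested.

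The strongest divergent peaks show the range of gene pairs. The peak between gcy-33, a guanylyl cyclase of gas-sensing neurons, and cpr-9, a cathepsin B-related protease gene, had a signal of 290 in the pooled list, 143 in replicate 1 and 146 in replicate 2. It lay 371 bp from gcy-33 in a gap of 1256 bp, 8 bp from the 5′ end of a tRNA gene. The peak between K01G5.10 and tasp-1 (signal 287) had 130 in replicate 1 and 158 in replicate 2, and its summit was 50 bp upstream of tasp-1. The peak between ecps-1 and atx-2 (signal 285) had 140 and 141, with the summit 65 bp upstream of atx-2. The peak between mlcd-1 and idhg-1, a subunit of isocitrate dehydrogenase (signal 264), had 109 and 153, with the summit 63 bp upstream of idhg-1. In the last 3 the summit was at most 65 bp from one start and farther from the other. Some peaks, between divergent starts or not, could not be given to a single gene: 328 had starts of 1 gene within 1000 bp, 146 of 2 genes and 10 of 3 genes. A summit at the start of sws-1 and mrps-35, a mitochondrial ribosomal protein gene, had 7 annotated 5′ ends within the limit, the most of any, in a gap of 156 bp.

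Together the 484 peaks reached 621 of the 17242 autosomal protein-coding genes, so that 3.6% of genes had a summit within 1000 bp of a start. Of these, 594 genes had 1 peak, 25 had 2 and 2 had 3 or more, so that neighbouring peaks at times shared a target. Chromosome III had the most, with 120 peaks at 155 of its 2640 genes (5.87%). Chromosome I had 102 peaks at 130 of 2878 genes (4.52%), and chromosome II had 103 at 126 of 3449 (3.65%). The lowest shares were those of chromosome IV, with 76 peaks at 96 of 3281 genes (2.93%), and chromosome V, with 83 at 114 of 4994 (2.28%). The central 50% of each autosome held 307 of the 484 peaks (63.4%) and 55.7% of the autosomal genes. Genes with a symbol were reached in 428 of 9566 cases (4.47%) and genes known by a sequence name only in 193 of 7676 (2.51%).

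The signal of the 484 peaks ran from 82.5 to 675 with a median of 104 and quartiles of 91.7 and 131. The strongest peak, at K12H4.5, reached 675 in the pooled list, and its replicate signals were 347 and 325. It lay at chrIII:8043790-8044140, between genes, with its summit 532 bp upstream of the start, and the nearest small RNA gene, a tRNA gene, was 25450 bp away. Next was the peak upstream of sre-23, a chemoreceptor gene, at 533 (243 and 287), at chrI:8259390-8259716. Its summit was 612 bp from the sre-23 start and 53 bp from the 5′ end of the snoRNA gene ZK265.10. M01F1.9 followed at 412 (188 and 223), with the summit in an annotated intron, 978 bp upstream of the nearest start. At nphp-1, which encodes nephrocystin of the ciliary transition zone, the signal was 369 (172 and 197) and the summit only 65 bp upstream. Each of these 4 peaks had at least 172 in both replicates, where the medians over the start peaks were 51.2 in replicate 1 and 57.0 in replicate 2.

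Among the 20 strongest, 10 had the 5′ end of a small RNA gene within 200 bp, 7 of them snoRNA and 3 tRNA genes. The summit was upstream of the nearest protein-coding start in 13 and downstream in 7, and 6 of those 7 were near a small RNA gene. These 6 were Y43F8C.7 (signal 358, summit 39 bp from a snoRNA gene), mpk-2, a MAP kinase gene (308, 7 bp from a snoRNA gene), col-85 (271, 2 bp from a tRNA gene), cye-1, the gene of cyclin E (258, 1 bp from a tRNA gene), F55A11.6 (255, 72 bp from a snoRNA gene) and pdl-1 (251, 40 bp from a snoRNA gene). The seventh was ints-8, a subunit of the Integrator complex, at 279 (replicate signals of 146 and 131) and an offset of 879 bp. The 20 strongest also included eel-1, a HECT ubiquitin ligase (274), rpl-3, a protein of the large ribosomal subunit (265), and W01D2.3 (278). Others were cfim-2, a subunit of an mRNA cleavage factor (288), and wrt-3, a hedgehog-related gene (249), whose summits were 66 and 60 bp from snoRNA genes. Of the 20, 18 were narrower than 450 bp, the width that 443 of the 484 peaks share.

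The IDR list was selected on these same 2 replicates, so the presence of its peaks in both lists was largely set by that choice and is given as a description. Of 484, 474 had a summit within 100 bp in the list of replicate 1, 475 in that of replicate 2 and 465 (96.1%, exact interval 93.9 to 97.6%) in both, 9 were matched in replicate 1 alone and 10 in replicate 2 alone. Matches at any rank were counted, down to rank 19004 in replicate 1 and 15408 in replicate 2. The signal in replicate 1 divided by that in replicate 2 had a median of 0.894 (quartiles 0.737 and 1.09). The SD of the log2 ratio was 0.49 (n = 465 peaks). The scales of both lists were set by the authors' caller, so the ratio has no meaning beyond its spread. The replicate signals summed to 0.995 of the pooled signal in the median (quartiles 0.981 and 1.01).

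Agreement was closest among the strong peaks. For the 50 strongest the SD of the log2 ratio was 0.23, for ranks 51 to 100 it was 0.47, and for ranks 401 to 484 it was 0.56. All 20 strongest had ratios between 0.717 and 1.37. The rank correlation across all 465 peaks was 0.42 (Spearman, a description). Since the IDR list was drawn from the top of the pooled list, a weak peak low in one replicate had to be higher in the other, and few peaks could be low in both. F37F2.2, singled out after its values were seen, was the exception, with 99.5 in the pooled list but 20.8 and 23.0 in the replicates. That peak overlaps a stronger one. By the ratio as deposited, not centred on its median, the most uneven were the second peak at W01D2.3 (20.2 in replicate 1 and 87.1 in replicate 2), gei-4 (20.9 and 88.5), cdc-14, a phosphatase gene of the cell cycle (19.5 and 72.9), tag-267 (15.2 and 53.1) and, in the other direction, F25E5.1 (60.6 and 17.8). The second W01D2.3 peak directly adjoins the first, one of the 20 strongest, which had 139 and 137. The most even among peaks above the median signal were ntl-2, a CCR4-NOT subunit gene (64.3 in both), jhdm-1, a histone demethylase gene (60.5 and 60.8), flh-3 (68.6 and 69.1), F10E9.11 (57.9 and 57.4) and sup-37 (60.1 and 60.6).

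**Figure D2:**
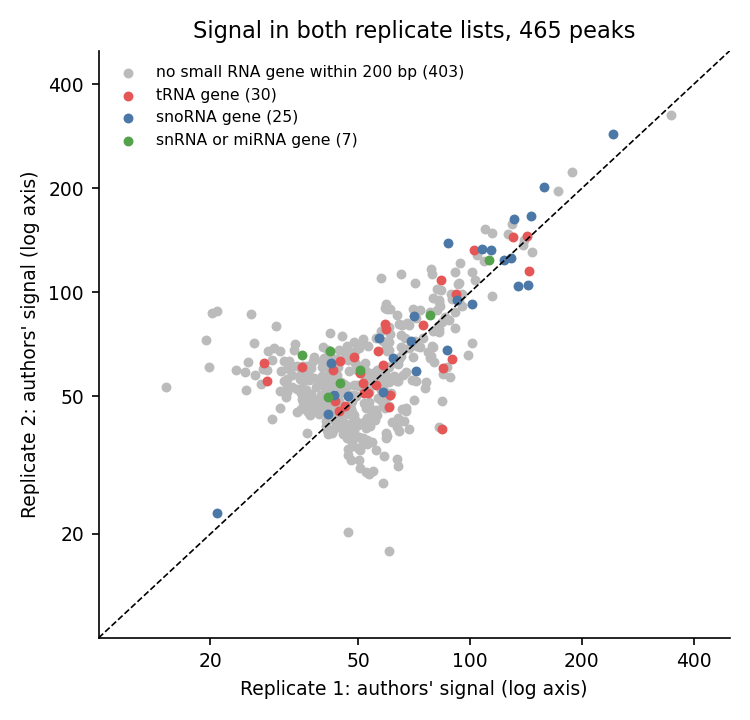
Authors' signal of the 465 autosomal start peaks present in both replicate lists, replicate 1 against replicate 2 on log axes, coloured by the type of small RNA gene with its 5′ end within 200 bp of the summit (number of peaks in brackets). The strong peaks lie along the dashed line of equal signal, up to 347 and 325, and the weak ones spread to both sides of it.

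Small RNA genes, transcribed in part by RNA polymerase III, lay at a minority of the peaks but at many of the strongest. The 5′ end of a tRNA, snoRNA, snRNA or miRNA gene was within 200 bp of 63 summits (13.0%, exact interval 10.2 to 16.3%): 31 tRNA, 25 snoRNA, 5 snRNA and 2 miRNA genes, and no rRNA gene. Their share was 40% among the 50 strongest peaks, 14% at ranks 51 to 100 and 3.57% at ranks 401 to 484. The 25 peaks at snoRNA genes had a median signal of 187 (85.4 to 533), the 31 at tRNA genes 112 (86.2 to 290) and the 421 with no small RNA gene 102. At snoRNA genes the summit sat upstream of the RNA, with a median position of -45 bp from its 5′ end (quartiles -66 and -34 bp). At tRNA genes it sat on the 5′ end, with a median of -1 bp (quartiles -20 and 62 bp). Of the autosomal snoRNA genes, 25 of 313 (7.99%) had one of the 484 summits within 200 bp, where 143 of the 313 lie within 1000 bp of a protein-coding start, and 55 had any autosomal IDR summit. Of the tRNA genes, 35 of 336 (10.4%) had one of the 484, where 150 lie within 1000 bp of such a start, and 82 had any. Gene copies of a tRNA are near-identical, and how reads from such copies were placed is not given in the sources used here.

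Peaks beside small RNA genes were spread more evenly around the protein-coding starts. Of the 63, 23 (36.5%) lay within 400 bp upstream of the protein-coding start, against 260 of the 421 others (61.8%). They were found again among the strongest peaks of both replicates in 54 of 63 cases (85.7%) and the others in 220 of 421 (52.3%). Being found again follows signal, from 100% of the 50 strongest start peaks to 1.19% at ranks 401 to 484, and the part of signal in this gap was not tested. The letters GTTCGANNC, searched for up to 100 bp from the summit on either strand once the sequences had been seen, were present at 17 of 31 peaks near tRNA genes, 6 of 25 near snoRNA genes and 7 of the 421 without a small RNA gene. Over all 484 peaks that made 30 (6.20%, exact interval 4.22 to 8.73%), and windows of the same length 192 bp upstream of all 25190 annotated starts held them in 1.07%.

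**Figure D3:**
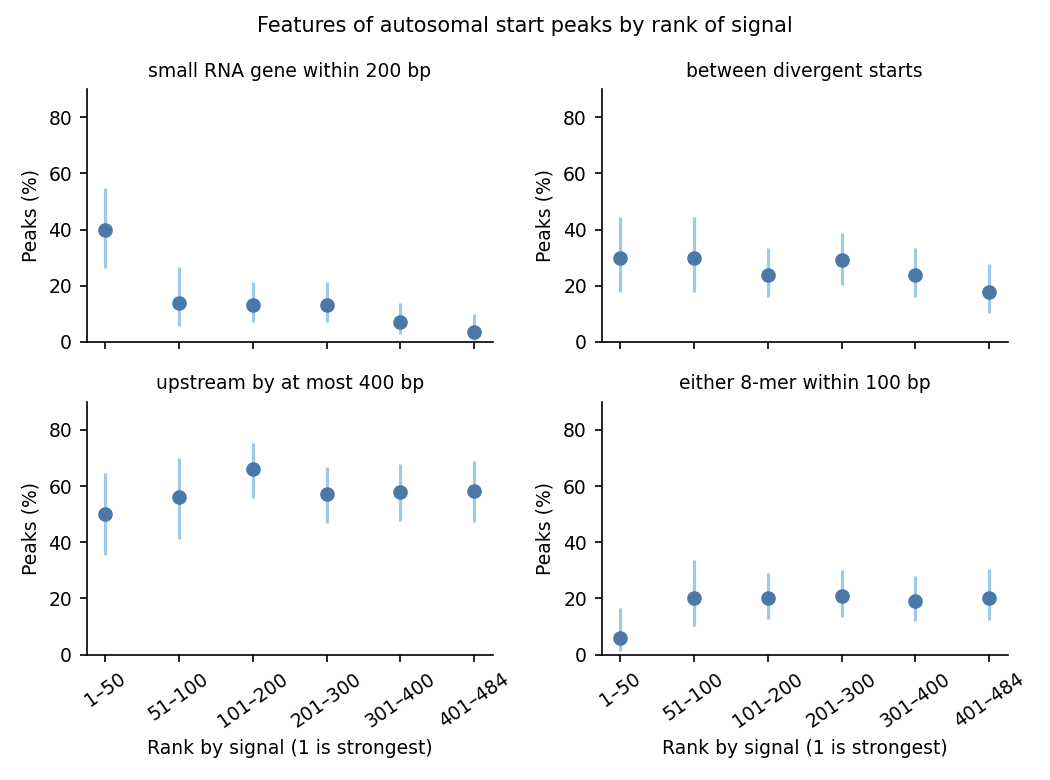
Share of the autosomal start peaks with 4 features, by rank of signal among the 484 (50 to 100 peaks a class, exact 95% intervals). The share near small RNA genes falls from 40% in the 50 strongest to 3.57% in the weakest class, the shares between divergent starts and within 400 bp upstream have overlapping intervals in all classes, and the share with either 8-mer is lowest, 6%, in the 50 strongest.

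The 8-mer AGACGCAG was within 100 bp of the summit, on either strand, at 54 of the 484 peaks (11.2%, exact interval 8.49 to 14.3%). Windows of the same 201 bp, placed 192 bp upstream of all autosomal starts, held it in 2.87%. GAGAGAGA was at 48 (9.92%, interval 7.40 to 12.9%), against 2.62% of those windows. Both 8-mers were taken from earlier results of these data, so their higher shares under the summits are a description and not independent evidence. Both were present at 12 peaks and either at 90 (18.6%). GC content, at a median of 47.8% under the summits and 33.8% in the start windows, differed in the same direction, and its part in these shares was not tested. The closest AGACGCAG was a median of 47 bp from the summit, within 50 bp in 29 of 54, on the strand of the gene in 28 and on the other in 26. The closest GAGAGAGA was a median of 39.5 bp away, within 50 bp in 33 of 48, and on the opposite strand in 31. Relative to the protein-coding start, the median position was -202 bp for AGACGCAG and -274 bp for GAGAGAGA.

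AGACGCAG was rare among the strongest peaks, at 2.00% of the 50 strongest and 14.3% of ranks 401 to 484, and the median signal was 98.9 with it and 105 without. Its strongest carrier was the peak between the histone genes his-67 and his-68 (signal 230, with 109 in replicate 1 and 123 in replicate 2), which held GAGAGAGA too. After it came nurf-1, a subunit of a chromatin remodeller (164, with 57.6 and 110), T28B8.1 (164, with 85.8 and 85.0) and the lin-66 peak printed above (163, with 98.5 and 65.9). GAGAGAGA was at the strongest peak of all, K12H4.5, at nphp-1 and at pqn-87 (177, with 79.4 and 96.3). Only 1 of the 63 peaks near small RNA genes held AGACGCAG (1.59%), against 12.6% of the other 421. Among all 8-mers present at 25 or more of the peaks, the highest ratio to the start windows was that of CGAGAGAG (34 peaks, 7.02%, against 0.921% of windows, 7.63 times), followed by GAGACACA (29 peaks, 7.09 times), GCGAGAGA (27 peaks, 6.45 times) and CTAGGCCA (36 peaks, 6.35 times). Several of these overlap one another in GA-rich runs.

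The classes of genes reached were unequal. The lists below are gene families by name, and their shares are read against the 3.6% of all autosomal protein-coding genes, with no test of a list. A gene counts if a summit is within 1000 bp of any of its starts, even where the start of another gene is nearer. Cytosolic ribosomal protein genes had a summit in 20 of 79 cases (25.3%, exact interval 16.2 to 36.4%). Taking each gene's strongest peak, the summit was upstream of 18 of the 20 starts, with a median offset of -284 bp to the gene's own start, 18 were intergenic and 13 of the genes faced a divergent partner. The start of a gene outside the list was nearer to the summit for rpl-20, rpl-22, rpl-27, rpl-43, rps-12, rps-19, rps-20 and rps-26. The strongest were rpl-3 (signal 265, with 115 in replicate 1 and 149 in replicate 2), rpl-15 (233, with 104 and 128), rpl-35 (183, with 82.3 and 93.6) and rpl-20 (145, with 78.6 and 65.2). The remaining ones ran down to 83.6, the level of the weakest IDR peaks. Translation initiation and elongation factors had 5 of 36 (13.9%), led by iff-2, the eIF5A gene (183, with 81.7 and 102), at -59 bp. Mitochondrial ribosomal proteins had 4 of 70 (5.71%), and aminoacyl-tRNA synthetases 1 of 32, ears-2, a glutamyl-tRNA synthetase gene (219).

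Chromatin regulators had 15 of 78 (19.2%, interval 11.2 to 29.7%), with 17 peaks at a median signal of 114. The strongest was lin-35, the retinoblastoma homologue (197, with 78.3 in replicate 1 and 117 in replicate 2), 192 bp upstream of its start and facing vps-51. It was followed by chd-7, a remodeller of the chromodomain family (178, matched in replicate 2 alone at 106), swsn-3, a SWI/SNF subunit (171, with 83.8 and 82.3), and jmjd-1.2, a histone demethylase (170, with 81.4 and 89.0). The jmjd-1.2 summit was nearer to the start of its divergent partner, F29B9.11. Histones had 9 of 77 genes (11.7%, interval 5.49 to 21.03%) through 7 peaks. Of the 9 genes, 8 form divergent pairs, each pair with a summit between its starts. The interval counts the genes of a pair as separate although they share that summit, so it is too narrow. The pair his-67 and his-68 stood highest at 230. The pair his-59 and his-60 had 121 (62.5 and 57.2), and the linker histone gene hil-7 had 181 (82.4 and 94.9). For each of the 9 genes the strongest summit was intergenic and upstream of its start, at offsets between -258 and -72 bp. The remaining peaks were second, weaker ones, at his-32 (101, with 39.8 and 63.2), 96 bp downstream of the start in a coding exon, and at hil-7 (90.9, with 36.1 and 52.2), 25 bp upstream. Histone genes of one type have near-identical copies, so reads there may be split or shared.

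Heat shock and DnaJ chaperone genes had 9 of 55 (16.4%, interval 7.77 to 28.8%), among them hsp-60 of mitochondria (159, with 71.6 in replicate 1 and 84.1 in replicate 2), hsp-90 (135, with 65.0 and 65.6), dnj-29 (134, with 84.1 and 48.3) and hsp-1, the constitutive Hsp70 (123, with 51.4 and 73.0). The summits of hsp-60 (offset -655 bp) and hsp-90 (-371 bp) were nearer to the starts of their divergent partners, Y22D7AL.10 and C47E8.4. Nuclear pore and transport genes had 5 of 40 (12.5%), led by npp-8 (168), npp-6 (155) and ima-1, an importin alpha gene (117). Splicing genes had 5 of 48 (10.4%), led by prp-19 (186), and all 5 faced a divergent partner. The partner's start was also the nearer one at npp-6 (spd-5), ima-1 (dvc-1) and prp-19 (K10D2.5, with prp-19 at -663 bp). DNA replication and repair genes had 7 of 72 (9.72%), led by cdc-48.1 (188), and respiratory chain genes 5 of 50 (10%). Actin, tubulin and myosin genes had 4 of 33 (12.1%), led by tba-7 (212), and cyclins and their kinases 3 of 24 (12.5%), cye-1 (258), cki-1 (115) and cdk-9 (89.5). Exact intervals reached below the 3.6% of all genes for 4 of these lists, with lower bounds of 3.47% for splicing, 3.33% for the respiratory chain, 3.40% for actin, tubulin and myosin and 2.66% for cyclins and their kinases.

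Several large families had shares below the 3.6% of all genes. Chemoreceptor genes had 8 of 1276 (0.627%, interval 0.271 to 1.23%), and the strongest of them, sre-23, was the peak beside a snoRNA gene described above. C-type lectins had 2 of 237 (0.844%, interval 0.102 to 3.02%), F-box and MATH-BTB genes 5 of 427 (1.17%, interval 0.381 to 2.71%), and detoxification enzymes of the cytochrome P450 and transferase families 1 of 171, gst-27 (162), which lay near a snoRNA gene. The intervals of 3 further families held the 3.6% of all genes: homeobox genes had 1 of 74 (interval 0.0342 to 7.30%), lim-8 (95.3), nuclear hormone receptors 7 of 247 (2.83%, interval 1.15 to 5.75%), led by nhr-41 (124), and ion channels 6 of 215 (2.79%, interval 1.03 to 5.98%), led by twk-5 (244). The summits at lim-8 and nhr-41 lay beside tRNA genes, and that at twk-5 beside a snoRNA gene. Major sperm protein genes had 0 of 53 (upper exact bound 6.72%). In the machinery of dosage compensation and condensin, 2 of 12 autosomal genes were reached (16.7%, interval 2.09 to 48.4%). They were dpy-27, the complex's own SMC subunit, at 141 (65.2 in replicate 1 and 75.3 in replicate 2) and -670 bp, and hcp-6, a condensin II subunit, at 113 (54.6 and 55.9) and -117 bp. Of 21 autosomal sex determination genes, 1 was reached (4.76%, interval 0.121 to 23.8%), sea-2, an autosomal signal element (96.5), by a summit in a coding exon 299 bp downstream. The intervals of both of these small lists held the 3.6% of all genes, so neither can be told apart from that share.

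In the cuticle collagens, the structural proteins of the exoskeleton, the summits lay inside the genes. They had 10 of 149 (6.71%, interval 3.27 to 12%), and none of the 10 summits was upstream: they lay 337 to 826 bp downstream of the gene's start, at a median of 587 bp, and 9 were in coding exons. Those 9 made up 9 of the 29 coding-exon summits among all 484 peaks. They were weak, from 85.0 at col-52 (32.0 in replicate 1 and 51.6 in replicate 2) to 116 at col-111 (46.2 and 67.7), with col-98 at 101 (41.8 and 58.5) and col-97 at 96.4 (42.1 and 53.4). The tenth, at col-85 (271), was in an intron beside a tRNA gene. Coding-exon summits in general had a median signal of 91.5 and a median GC content of 57.2%, the latter against 47.8% for all 484. Collagen genes share repeated coding sequence, and how reads from such sequence were placed is not given in the sources used here.

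**Figure D4:**
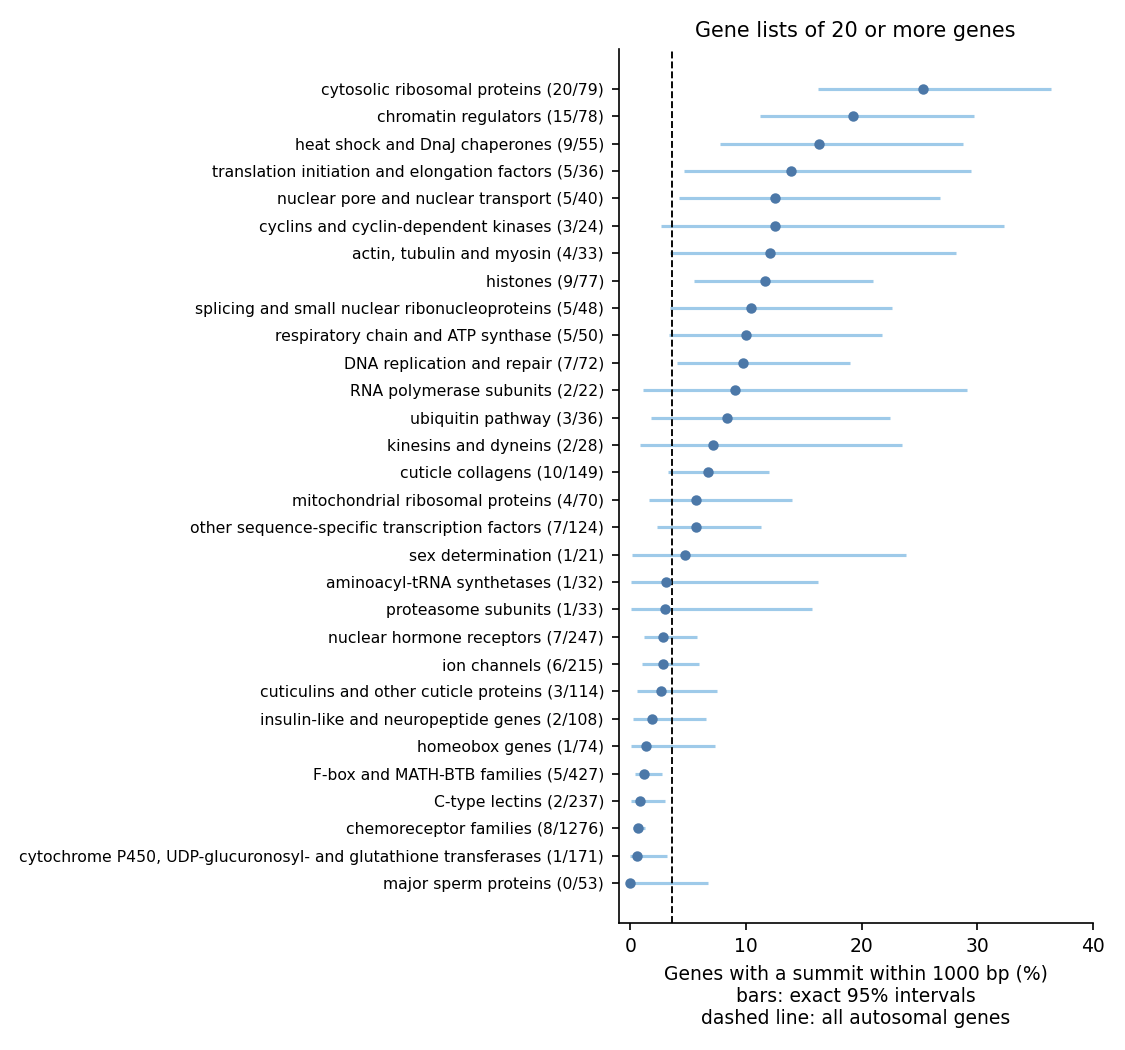
Share of the autosomal genes of each name-based list of 20 or more genes with an IDR summit within 1000 bp of a start (points, with exact 95% intervals and counts in brackets), and the 3.6% of all autosomal protein-coding genes (dashed line). Cytosolic ribosomal proteins (25.3%) and chromatin regulators (19.2%) stand highest, and chemoreceptors (0.627%) are among the lowest.

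The autosomal start peaks were then set against the 296 autosomal IDR peaks farther than 1000 bp from any start and the 297 X peaks at starts, in 12 two-sided Fisher exact tests on counts of peaks. The p-values are adjusted over the 12 (Benjamini-Hochberg) and describe these 2 libraries, since peaks, not worms, were counted. Against the far autosomal peaks, the start peaks were less often beside a small RNA gene, at 63 of 484 (13.0%) and 85 of 296 (28.7%), a difference of -15.7 points (95% interval -21.7 to -9.83, exact adjusted p = 4.12e-07). They also less often held GAGAGAGA, at 9.92% and 17.2% (-7.31 points, -12.6 to -2.42, exact adjusted p = 0.00916). The second call was lost with a limit of 2000 bp (-1.58 points, exact adjusted p = 0.799) and among the IDR peaks above the median signal (-6.83 points, exact adjusted p = 0.177). No difference passed the test for signal above the median of all IDR peaks, at 39.3% and 40.9% (-1.62 points, -8.72 to 5.39, exact adjusted p = 0.652). Nor did one for AGACGCAG, at 11.2% and 13.9% (-2.69 points, -7.76 to 1.97, exact adjusted p = 0.350), or for being found again among the strongest peaks of both replicates, at 56.6% and 53.7% (2.90 points, -4.26 to 10.1, exact adjusted p = 0.550). Median signals were 104 in both sets, while the strongest far peak reached 1646 and the strongest start peak 675.

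Against the X peaks at starts, the autosomal ones were weaker and less often found again. Signal was above the median of all IDR peaks in 190 of 484 (39.3%) and in 180 of 297 (60.6%), a difference of -21.4 points (-28.2 to -14.2, exact adjusted p = 4.54e-08). They were found again in both replicates, a measure that follows signal, in 56.6% and 69.4% (-12.8 points, -19.4 to -5.77, exact adjusted p = 0.00112). The clearest difference in position was between divergent starts, at 122 of 484 (25.2%) and 16 of 297 (5.39%), 19.8 points apart (14.97 to 24.4, exact adjusted p = 1.18e-12). Divergent starts are also closer to hand on the autosomes, where 4.63% of the bases near starts lie between them, against 1.61% on X, and the part of that background in the difference was not tested. The share upstream was 81.2% and 86.9% (-5.67 points, -10.7 to -0.279, exact adjusted p = 0.0950). The shares near small RNA genes, 13.0% and 8.42% (4.60 points, 0.00289 to 8.83, exact adjusted p = 0.106), with AGACGCAG, 11.2% and 14.5% (-3.32 points, -8.43 to 1.40, exact adjusted p = 0.271), and with GAGAGAGA, 9.92% and 11.4% (-1.53 points, -6.28 to 2.80, exact adjusted p = 0.598), did not pass the test. The pooled small RNA share hides its types. Genes of tRNA were at 31 of 484 autosomal (6.41%) and 25 of 297 X start peaks (8.42%). Those of snoRNA were at 25 (5.17%) and 0, of snRNA at 5 and 0 and of miRNA at 2 and 0. The types were not tested apart, and small RNA genes on X were not counted. In the strongest peaks of replicate 1 alone the upstream share differed by -9.43 points (exact adjusted p = 0.00301), and in those of replicate 2 alone the small RNA share differed by 6.01 points (exact adjusted p = 0.0315), so each of these calls rested on which library was left out. The call for being found again was lost among the IDR peaks above the median signal (-4.01 points, exact adjusted p = 0.188).

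The features of the 484 peaks faded along the pooled list below the IDR threshold. That list is labelled by its authors as peaks and background, so its weaker entries, called peaks here, may be background. Of the autosomal peaks at ranks 1344 to 4000, 48.8% were within 1000 bp of a start, and of those from rank 16001 on, 45.3%, against 62.05% of the IDR peaks and 42.5% of autosomal bases. Among the ones at starts, the median offset moved from -192 bp to -66.5 bp, 0.5 bp, 16 bp and 62 bp over the 5 rank classes. The share within 400 bp upstream fell from 58.5% to 39.6% and then to 24.6% in the last class, where 22.4% of the bases lie. The share between divergent starts fell from 25.2% to 14.9% and 5.08%, near the 4.63% of bases. Small RNA genes fell from 13.0% to 3.95% and 0.645%, and AGACGCAG from 11.2% to 8.70% and 2.68%. Median GC content was 47.8% in the first and second classes and 39.3% in the last.

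**Figure D5:**
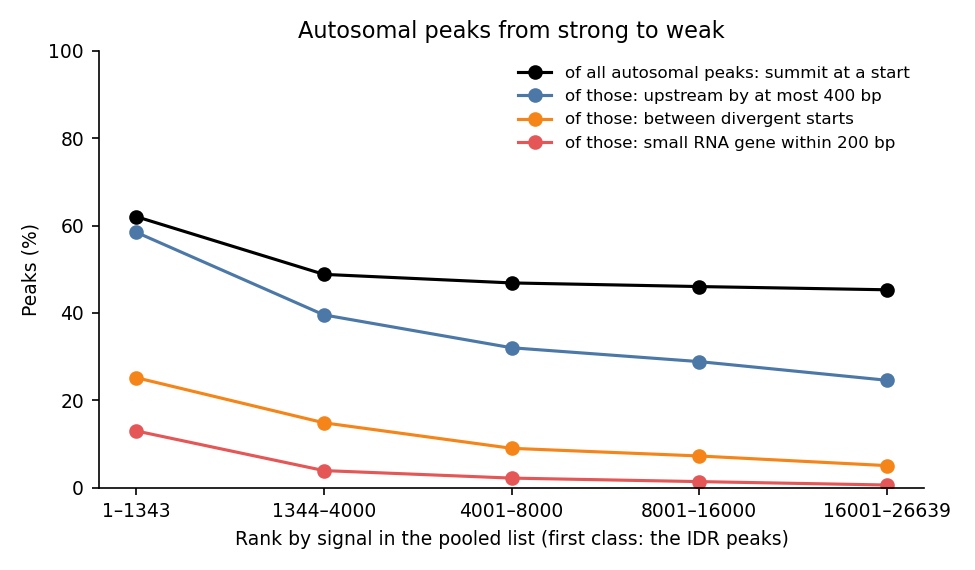
Autosomal entries of the pooled list (peaks and background) in 5 classes of rank by signal, with the share at gene starts and, of those at starts, the share within 400 bp upstream, between divergent starts and near small RNA genes. Each share is highest in the IDR class and lowest in the weakest, where 45.3% are at starts and 24.6% of those lie within 400 bp upstream.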

How the data were processed

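Peak lists of ChIP-seq from 2 biological replicates of 1 group were used, on build ce11. According to the README texts deposited by the authors, peak calling was run on each replicate and on the pooled pair, always with a single shared control alignment, and the IDR list comes from those calls. For caller, aligner, read filters and the threshold of the IDR, nothing is stated in these sources. The signal per peak is deposited by the authors with each list. It was ranked within a list, and the replicate and pooled signals of a peak were compared only to describe their spread. Lists on ce10 and the mitochondrial IDR peak were not used. Depth is unknown.

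Summits were set against 25190 5′ ends of protein-coding transcripts on the autosomes (Ensembl release 115, WBcel235), with positions counted from 1. Small RNA genes were tRNA, snoRNA, snRNA, miRNA and rRNA genes with a 5′ end within 200 bp. A peak was found again in both replicates if each had a summit within 100 bp among its 1343 strongest. The sequences shown are the strongest examples of each kind, clear of protein-coding exons, on chromosomes II to V. For those beside small RNA genes, the kind also required GTTCGANNC within 60 bp of the summit, so they do not stand for all such peaks. Motifs were searched for up to 100 bp from the summit, on either strand. Exact (Clopper-Pearson) 95% intervals cover the counting of peaks or genes only. Genes of a list that share a summit are counted as separate in them. Comparisons of peak sets were two-sided Fisher exact tests, adjusted by Benjamini-Hochberg over 12, in scipy 1.17.1 (Python 3.11.15, pandas 2.3.3). The Fisher test was also run on simulated independent counts, with and without a difference. Those counts held no dependence between peaks and no adjustment, so they do not check the comparisons themselves. Intervals for differences are at 95%. Overlapping peaks were kept, and 15 of the 484 overlap a stronger IDR peak.

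Members, gene lists and both 8-mers were chosen with earlier results of these data known, and GTTCGANNC after sequences were seen. High shares of ribosomal protein, heat shock and histone genes were already known from them and are not independent evidence. The genes named are those nearest the 20 strongest peaks, up to 4 per list by signal, the 3 peaks to either side of the 1000 bp limit, the most and least even between replicates, those with the most starts, and the strongest holders of each feature, the last chosen after their values were seen. Replicates were compared as lists, with no test between groups. Alternatives were limits of 500 and 2000 bp, the outermost 5′ end per gene, overlap in place of summits, other motif windows and matching distances, the IDR peaks above the median signal and each replicate alone.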

Additional observations from a re-analysis of the deposited data

How the results depend on the processing

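The peak lists hold no read counts, so how depth limits weak peaks cannot be told, and 1 group of 2 replicates allows no test between conditions. Of 131 values computed under another setting, 98 kept their direction and their side of the threshold or moved by less than their interval, counts within 1.5 times. The cause was not tested where a value changed.

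With a limit of 500 bp, 46.8% of autosomal summits were at starts (78.9% at 2000 bp, 55% with the outermost 5′ end of each gene, 67.1% by any overlap of the peak). Upstream shares were 86.03% at 500 bp and 76.3% at 2000 bp, and divergent shares 20.5% and 30.7%. With either replicate left out, the upstream share was 77.4 to 77.6%. Searched up to 50 bp to either side of the summit, AGACGCAG was at 5.58% and GAGAGAGA at 5.79%, and up to 200 bp at 14.9% and 13.8%. Peaks found again came to 49.4% with summits within 50 bp and 62.2% by overlap. In the IDR peaks above the median signal AGACGCAG was at 7.37%, and 257 genes were reached.

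Differences from far autosomal peaks that turned were found again (-0.835 points at 500 bp, -2.62 at 2000 bp, -1.28 among the IDR peaks above the median signal, the stronger ones) and signal above the set's median (1.30 points among the stronger, by their own median). The GAGAGAGA difference no longer passed at 2000 bp (-1.58 points, Fisher exact adjusted p = 0.799) or among the stronger (-6.83, exact adjusted p = 0.177). Against X start peaks, GAGAGAGA turned (0.0727 points at 2000 bp, 0.526 among the stronger), found again no longer passed among the stronger (-4.01 points) and small RNA genes passed at 500 bp (5.72 points, exact adjusted p = 0.0369). With either replicate left out, differences ran from -5.22 to 6.43 points for signal against far peaks, and against X start peaks from -0.934 to 1.21 for GAGAGAGA, 4.02 to 6.01 for small RNA genes and -9.43 to -5.94 for the upstream share.

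Added after seeing the data, leaving out summits near small RNA genes gave 66.6% at starts and turned the signal difference from far peaks (5.30 points, exact adjusted p = 0.267), and leaving out peaks that overlap a stronger one changed no call. Peaks found again in both cannot be computed from 1 replicate.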
